A study of Caenorhabditis elegans with 2 samples.

Results

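The peaks described here are the binding sites of UNC-86 on the X chromosome of Caenorhabditis elegans. They are all peaks of the authors' optimal list, on the ce11 build, that lie on X, and they number 577 of 2987 peaks in the list. The other 2410 lie on the 5 autosomes, which serve throughout as the comparison. Binding was mapped by chromatin immunoprecipitation and sequencing (ChIP-seq) in whole hermaphrodite larvae of the first stage (L1), collected 6 hours post synchronization, for which embryos from bleaching had been starved. The labels give unc-86 as the antibody, while the descriptions name an antibody to GFP, which was taken here as the reagent. The strain, OP476, has the genotype unc-119(tm4063) III; wgIs476, an unc-119 mutation with an integrated transgene that carries UNC-86 with a C-terminal tag, which the labels call both eGFP and GFP-FLAG, without naming the sequence that drives it. There were 2 biological replicates of this 1 group, so no conditions were compared, and a control named in the labels was not analysed here. The optimal list was made from both replicates by the irreproducible discovery rate (IDR) procedure, which keeps peaks that rank alike in both. Each peak has a summit, its single highest base, and a signal value, the authors' own measure of enrichment, which was used here to rank and describe peaks within a list. Peak lists hold no read counts and no expression values, so the depth of the libraries is unknown and the labelled tissue could not be checked against expressed markers.

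UNC-86 is a POU homeodomain transcription factor that specifies several classes of neurons, among them the touch receptor neurons, where it acts with the LIM homeodomain protein MEC-3. The X chromosome of this worm is unusual in its genes and in its chromatin. Genes of the germline and of general cell maintenance are scarce on it, and a large part of the worm's tRNA genes lies there. In hermaphrodites, which have a pair of X chromosomes, the dosage compensation complex binds both and lowers their expression. It is loaded at recruitment sites that carry a short motif, whose core holds the bases GCGCAGG, and spreads from there.

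The sequences below carry the clearest difference in sequence between X and the autosomes, described further on. All are on the ce11 build (RefSeq WBcel235), read 5′ to 3′ on the strand given, and each line gives the gene whose protein-coding 5′ end lies nearest. The capitals mark GCGCAGG. Each site lies within 75 bp of an optimal summit, and the first 7 lines belong to 6 of the 20 strongest peaks on X. The other lines show weaker peaks. The first 2 of them have the bases TATC before the capitals, and the last 2 lack the TC that precedes the capitals in all other lines printed here.
F20B6.9, chrX:4209252-4209288, minus strand, signal 766: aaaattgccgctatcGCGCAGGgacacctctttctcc
W02H3.3, chrX:11094212-11094248, minus strand, signal 762: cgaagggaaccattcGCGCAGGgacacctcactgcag
cest-16, in an intron of mom-1, chrX:6296561-6296597, plus strand, signal 746: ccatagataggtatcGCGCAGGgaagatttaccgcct
Y41G9A.17, chrX:2997109-2997145, minus strand, signal 670: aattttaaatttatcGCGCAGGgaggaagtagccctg
xol-1, chrX:8036420-8036456, plus strand, signal 566: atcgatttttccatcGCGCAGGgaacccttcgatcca
xol-1, chrX:8036387-8036423, minus strand, signal 566: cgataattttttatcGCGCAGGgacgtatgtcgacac
nspc-17, chrX:14525886-14525922, minus strand, signal 553: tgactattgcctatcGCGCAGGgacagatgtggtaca
gtr-1, chrX:806659-806695, plus strand, signal 518: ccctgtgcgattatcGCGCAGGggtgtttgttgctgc
col-185, chrX:13514543-13514579, plus strand, signal 203: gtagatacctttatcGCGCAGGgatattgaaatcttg
gcc-1, chrX:3159712-3159748, minus strand, signal 79.9: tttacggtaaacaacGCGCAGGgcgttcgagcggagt
sur-5, chrX:7306616-7306652, minus strand, signal 69.5: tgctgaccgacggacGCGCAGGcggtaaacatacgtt

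A second set shows AATGCAT, the element to which UNC-86 binds together with MEC-3, at X peaks of touch receptor genes and of nuclear hormone receptor genes. The capitals mark 1 copy of AATGCAT in each line, and the build is the same. The nhr-1 line holds a second copy left in lower case, and in the mec-10 and nhr-40 lines a copy on the other strand overlaps the marked one and is not marked apart. Both mec-7 and mec-10 are known genes of the touch receptor neurons.
mec-7, chrX:7776797-7776833, plus strand, signal 161: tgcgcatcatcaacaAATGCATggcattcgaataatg
mec-10, chrX:8470308-8470344, plus strand, signal 130: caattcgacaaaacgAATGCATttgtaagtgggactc
nhr-1, chrX:17513743-17513779, minus strand, signal 308: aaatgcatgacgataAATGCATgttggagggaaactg
nhr-40, chrX:2599059-2599095, plus strand, signal 198: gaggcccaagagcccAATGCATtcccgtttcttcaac

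The commonest sequence at X summits was the GA repeat. One whole summit window of 151 bp is shown for it, from the strongest X peak that holds GAGAGA, which lies near the snoRNA gene W01H2.11 at chrX:4222960-4223110. The capitals mark GAGAGA, and in 1 place copies overlap.
W01H2.2, plus strand, signal 674: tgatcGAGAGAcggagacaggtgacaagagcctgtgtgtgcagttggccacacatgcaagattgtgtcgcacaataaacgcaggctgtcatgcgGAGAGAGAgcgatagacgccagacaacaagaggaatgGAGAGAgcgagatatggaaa

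The X chromosome held about its share of peaks by length and more than its share by genes. It is 17.7% of nuclear chromosome length and held 19.3% of optimal peaks (95% interval 17.9 to 20.8), a difference that did not pass the threshold of 0.05 (exact binomial test, two-sided, p = 0.0200, adjusted p = 0.051 over 18 comparisons). Each replicate's own strongest 2987 peaks gave 19.2% and 19.7%. Of the 6 chromosomes, III (39.8 peaks per Mb) and the first autosome (36.6) were denser than X (32.6), while II (28.4), IV (26.7) and V (19.5) were less dense. Protein-coding genes were sparser on X than on any autosome, at 154 per Mb against 209 for the autosomes together. Per 1000 protein-coding genes, X therefore held 211 peaks, III held 208 and the autosomes together held 140. Set against the 13.7% of protein-coding genes that lie on X, the 19.3% of peaks passed the threshold (exact binomial test, adjusted p = 2.21e-16). Neighbouring peaks are not independent observations, so this and all other p-values over peaks overstate the evidence.

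The signals of X peaks had the lowest median and the lowest maximum of the 6 chromosomes. The 577 signals ran from 66.4 to 881, with a median of 118.7, and the autosomal medians ran from 122 to 133. The highest X signal was 881, and the maxima of the autosomes ran from 1156 to 1708. Among the 300 strongest peaks of the list, 52 lay on X. Of X peaks, 45.8% (95% interval 41.6 to 49.9) lay above the median signal of the list, against 51% of autosomal peaks (Fisher's exact test, adjusted p = 0.059). In 5 of the other settings tried this difference passed the threshold, for example among promoter summits alone, where the shares were 46.9% and 54.3% (Fisher's exact test, adjusted p = 0.017). Ranked down the whole pooled list, X held 15% of the first 100 peaks (95% interval 8.65 to 23.5), 18.5% of ranks 101 to 300 (13.4 to 24.6) and 17% of ranks 301 to 1000 (14.3 to 19.99), all with intervals that include its 17.7% of length. It held 20.3% of ranks 1001 to 2000, 20.6% of ranks 2001 to 2987, 23.2% (95% interval 21.7 to 24.8) of ranks 2988 to 6000, just below the optimal list, and 17.9% of the last 8768. Of the 8 classes of rank, the one just below the optimal list thus had the highest X share.

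**Figure D1:**
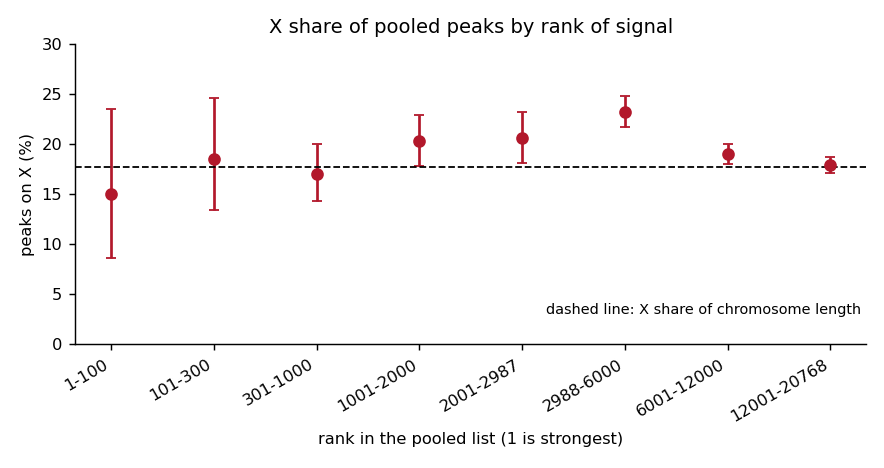
Share of pooled peaks that lie on X (vertical axis, percent) in 8 classes of rank by signal (horizontal axis, 1 is the strongest peak); points are shares, bars are exact 95% intervals and the dashed line is the X share of chromosome length, 17.7%. The share is 15% in the first 100 ranks, highest at 23.2% in ranks 2988 to 6000 and 17.9% in the last class.

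The strongest X peak lay 282 bp upstream of puf-9, which encodes a Pumilio-family RNA-binding protein. Its signal was 881, with 398 in replicate 1 and 478 in replicate 2, and it ranked 23 in the whole list. The second, 488 bp upstream of epn-1, which encodes the endocytic adaptor epsin, had a signal of 796, with 348 and 445 in the replicates. Several of the next strongest lay far from any protein-coding 5′ end. The third peak (766) was intergenic, 1787 bp upstream of F20B6.9. The fourth (762) was 3980 bp from the 5′ end of W02H3.3, and the fifth (746) was in an intron of mom-1, whose product acts in the secretion of Wnt ligands, 3382 bp upstream of cest-16. The sixth (729), also intergenic, was 6024 bp upstream of K02D3.1. Then came peaks 295 bp upstream of serp-1.1 (697), 4577 bp upstream of W01H2.2 (674), 2669 bp downstream of the 5′ end of Y41G9A.17 (670) and 5821 bp downstream of that of C30E1.4 (660).

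Places 11 to 20 among X peaks included promoters of broadly used genes. A peak of 638 lay 781 bp upstream of ftt-2, which encodes a 14-3-3 protein, one of 587 lay 425 bp upstream of bet-2, a bromodomain gene, and one of 547 lay 323 bp upstream of zfp-3. At rpl-11.2, which encodes a ribosomal protein, a peak of 546 lay 392 bp upstream. At hsp-3, which encodes a chaperone of the endoplasmic reticulum, a peak of 541 lay 62 bp upstream, and 1114 bp from the divergent gene C15H9.5. Other peaks in this range lay inside a gene or at various distances upstream. A peak of 633 lay inside F09A5.3, at 292, 462 and 599 bp from the 5′ ends of the microRNA genes mir-54, mir-55 and mir-56. One of 599 lay 3015 bp upstream of sma-9, a Schnurri-type cofactor of BMP signalling. One of 566 lay 4898 bp upstream of xol-1, the switch gene of sex determination, and nearer to tRNA genes, at 342 and 1092 bp from their 5′ ends. One of 557 lay 2630 bp upstream of dct-1, a mitophagy receptor gene, and one of 553 lay 740 bp upstream of nspc-17. At 6 other peaks of the 20 strongest a second, divergent gene lay farther off on the other side: dct-11 at 1532 bp beside puf-9, acox-1.6 at 2731 bp beside serp-1.1, W05H7.1 at 3802 bp beside zfp-3, tnt-3 at 6625 bp beside dct-1, R07A4.4 at 8559 bp beside sma-9 and F52D10.4 at 11270 bp beside ftt-2. Of the 25 strongest X peaks, 10 lay in the promoter window of a protein-coding gene, and of the 25 strongest autosomal peaks 19 did. A promoter window spanned 1500 bp before and 500 bp after the 5′ end of an annotated transcript.

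X summits lay farther from genes than autosomal summits. The median distance from a summit to the nearest protein-coding 5′ end was 1112 bp on X, and on the autosomes the medians ran from 354 to 551 bp. Promoter windows of any gene, coding or not, held 433 of the 577 summits (75%, 95% interval 71.3 to 78.5), against 81.1% on the autosomes (Fisher's exact test, adjusted p = 0.0064). The autosome nearest to X was III, at 76.0%. Intergenic sequence outside these windows held 89 X summits (15.4%, 95% interval 12.6 to 18.6) against 10% (adjusted p = 0.0022 by Fisher's exact test). The strongest peaks of each replicate gave 15.4% ± 1.12 on X and 9.95% ± 0.752 on the autosomes (SD, n = 2), so the difference exceeded the spread between replicates. Introns held 47 X summits (8.15% against 7.97%) and exons 8 (1.39% against 0.913%), and neither difference passed the threshold (adjusted p = 0.956 and 0.524 by Fisher's exact test).

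The layout of genes on X differs in the same direction. Intergenic sequence outside promoter windows is 17% of X and 11.3% of the autosomes, so the share of summits was 15.4% beside 17% of length on X and 10% beside 11.3% on the autosomes. Promoter windows cover 50.8% of X and 54.9% of the autosomes, and the share of summits in them was 1.48 times the share of length on both. For windows of protein-coding genes alone, the share of summits was 52.0% on X and 68.1% on the autosomes, which is 1.53 and 1.66 times their share of length. The part that gene layout plays in the distances was not tested.

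Over all summits, 2 more comparisons of place were chosen after the data were seen and are given as a description. Both include the lower share of X summits in protein-coding promoter windows. Within 500 bp of a protein-coding 5′ end lay 205 X summits (35.5%, 95% interval 31.6 to 39.6), against 52.7% of autosomal summits, and no autosome was below 48.6%. Sequence this close to a 5′ end is 18.8% of X and 24.1% of the autosomes. In the promoter windows of 2 or more protein-coding genes lay 33 X summits (5.72%, 95% interval 3.97 to 7.94), against 29.5% on the autosomes, where the lowest value was 26%. Sequence in 2 or more such windows is 2.81% of X and 7.27% of the autosomes. The replicates gave 35.3% and 35.4% near 5′ ends and 5.58% and 6.64% in shared windows on X. Of the 577 X summits, 267 were in the window of 1 protein-coding gene and 277 were in none.

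**Figure D2:**
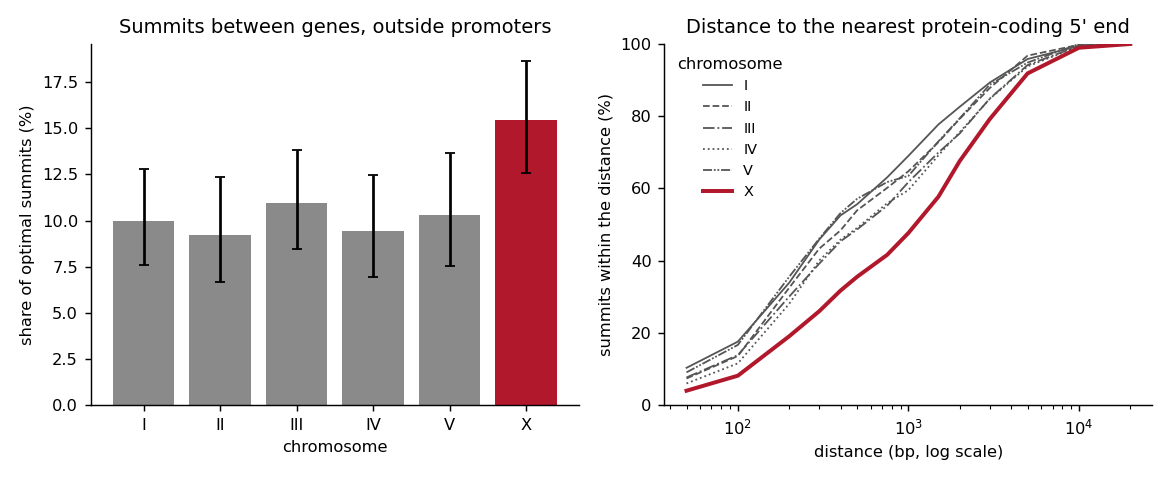
Left, share of optimal summits in intergenic sequence outside promoter windows (percent) on each chromosome, with exact 95% intervals; right, cumulative share of summits (percent) within a distance in bp (log scale) of the nearest protein-coding 5′ end, with X as the thick red line. The X bar, 15.4%, is the highest, and the X line lies below those of all 5 autosomes, with 35.5% of summits within 500 bp.

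Along the chromosome, X peaks were spread more evenly than autosomal peaks. In bins of 1 Mb the X counts ran from 23 to 45, with a median of 34, and their coefficient of variation was 0.174, while those of the autosomes ran from 0.273 to 0.460. Cut into 3 parts of equal length, X held 183, 183 and 211 peaks from left to right. The central part thus held 31.7% (95% interval 27.9 to 35.7), against 42% on the autosomes, where the central share ran from 38.9% to 47.8% (Fisher's exact test, adjusted p = 9.85e-05). Protein-coding genes were less centred too, with 35.7% of X genes in the central part against 38.1%, and the X peaks numbered 21, 18.8 and 23.9 per 100 protein-coding genes from left to right. Median signals were 122 in the left part, 105 in the central part and 136 in the right part. The fullest bin, from 15 to 16 Mb, held 45 peaks with a median signal of 158. The widest stretch without a peak, 229246 bp from 1627118 to 1856364, holds 41 protein-coding genes and ends at the summit near ceh-39.

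**Figure D3:**
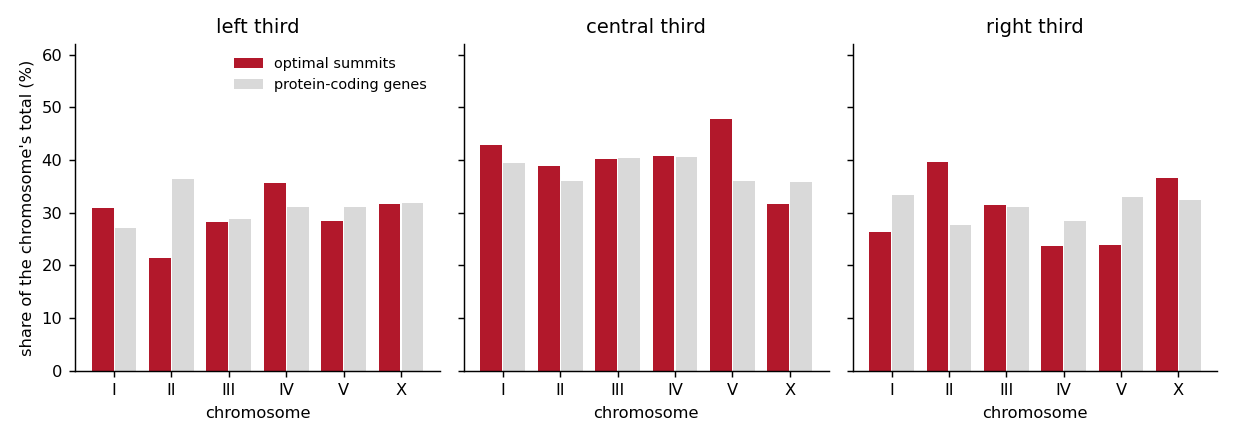
Share of each chromosome's optimal summits (red) and protein-coding genes (grey) in its left, central and right part, each 1 of 3 equal lengths, in percent of the chromosome's total. In the central part X has the lowest share of summits, 31.7%, below its own 35.7% of genes.

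No difference in close spacing was detected between X and the autosomes. Of X peaks, 22.2% (95% interval 18.9 to 25.8) had another summit within 2000 bp, against 22.4% (Fisher's exact test, adjusted p = 0.956). The densest group was 8 summits from 6736875 to 6750305, around mdl-1, which encodes a MAD-like transcription factor, and abts-4, an anion transporter gene. Its signals ran from 66.6 to 354, and 6 of the 8 were among the strongest peaks of both replicates. Around sma-9 and the claudin-like gene clc-4, 6 summits lay between 10763326 and 10771396, with signals up to 599. A group of 6 lay at cab-1 and C23H4.8, from 12198469 to 12210539, with signals from 92.6 to 395, and all of these were strong in both replicates. A weaker group of 6 lay from 15553221 to 15568457, at lron-3 and dyn-1, the dynamin gene. Only 2 of them were strong in both replicates. Next came 4 groups of 5 peaks each, listed in order of position. Any further groups of 5 to the right of these were not listed. One lay in and upstream of lin-14, a gene of developmental timing, with signals of 83.1, 237, 128, 231 and 82.6 along the gene. The tightest of the 4, over 7566 bp, lay at hil-3, C17H11.1, C17H11.2 and F22F1.3, with signals from 94.4 to 207, and all 5 were strong in both replicates. Another lay at scd-1, with signals from 81.8 to 242, and the last at pqn-65, slcr-46.1 and C46C11.3, with signals from 76.9 to 161.

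The known touch receptor genes on X were bound in part. Of 19973 protein-coding genes of the genome, 13.1% had an optimal summit in the promoter window, and on X 313 of 2731 did (11.5%, 95% interval 10.3 to 12.7), against 13.3% on the autosomes (Fisher's exact test, adjusted p = 0.020). When each summit was given only to the gene with the nearest 5′ end, the order turned, with 10.3% on X and 8.89% on the autosomes (Fisher's exact test, adjusted p = 0.056). Gene lists are set beside the X share of 11.5% as counts, with no test. Of 6 touch receptor genes on X, 3 had a promoter peak. At mec-7, which encodes a beta-tubulin, the summit lay just upstream of the 5′ end with a signal of 161, and 66.1 and 91.0 in the replicates. At mec-10, which encodes a degenerin channel subunit, it lay 17 bp upstream with 130, and 55.4 and 77.4. At mec-2, a stomatin-like gene, a summit 245 bp from an annotated 5′ end had 72.8, and 24.5 and 45.4. All 3 signals were higher in replicate 2, as at most X peaks. The X genes mec-4 (a degenerin), mec-5 (a collagen) and mec-18 had no promoter peak in the optimal list. In the pooled list mec-4 and mec-18 had promoter peaks with signals of 33.6 and 45.2, below the lowest optimal signal on X. An optimal peak of 74.2 lay within 5 kb of mec-4, and none lay that close to mec-5 or mec-18.

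Genes of dosage compensation and sex determination form the next list, of which 3 of 6 X members had a promoter peak. The highest was at ceh-39, a homeobox gene that helps to signal the number of X chromosomes, with 128, 192 bp upstream, and 59.3 and 75.1 in the replicates. At sdc-2, which brings the dosage compensation complex to X, a summit 458 bp upstream had 96.8, with 42.3 and 56.3. At fox-1, an RNA-binding protein gene that also acts in this signal, a summit had 90.6, with 35.7 and 56.2. Neither sdc-1 nor sex-1 had a promoter peak, nor did xol-1. The strong peak printed above lay within 5 kb of xol-1 but nearer to tRNA genes. An optimal peak of 94.6 lay within 5 kb of sex-1, and none lay that close to sdc-1.

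Among genes of neurons, 5 of 18 synapse and channel genes on X had a promoter peak. They were syd-2 (185), a liprin of the active zone, unc-18 (103), a regulator of vesicle fusion, unc-58 (95.9) and slo-2 (89.0), both potassium channels, and unc-1 (95.2), a stomatin-like protein. The calcium channel gene unc-2, the innexin genes unc-7 and unc-9 and the active zone gene unc-10 had none. None of 14 neuronal transcription factors on X had one, among them unc-3, ttx-3, ceh-14 and ceh-36, and none of 11 genes of axon guidance and adhesion had one, among them unc-6 (netrin), sax-3 (Robo), syg-1 and syg-2. Of 3 timing genes, lin-14 (83.1) had one and hbl-1 and daf-12 had none. A gene without a promoter peak could still have an optimal peak inside it or within 5 kb. The strongest such signals were 214 at unc-10, 191 at daf-12, 152 at unc-9 and 151 at twk-18, of the synapse and channel list. Next were 120 at lin-32, one of the 14 neuronal transcription factors, and 116 at unc-2. At unc-6, syg-1 and sax-3 they were 111, 106 and 73.5. No optimal peak lay that close to unc-7, unc-3, ttx-3, ceh-14, ceh-36, syg-2 or hbl-1.

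Genes listed as markers of other tissues on X, 16 in all, included 2 with a promoter peak (12.5%), close to the 11.5% of all protein-coding genes on X. Whether each gene is confined to its listed tissue was not checked. Of 5 body wall muscle genes on X, unc-97 (154) and act-4 (132) had one, while mup-2 and unc-27, of the troponin complex, and sup-10 had none. The unc-97 peak was also the strongest within 5 kb of the touch receptor gene mec-2. An optimal peak of 87.5 lay within 5 kb of sup-10. None of 7 intestine genes (elt-2, elt-4, vit-1 and vit-2 among them) and none of 4 hypodermis genes (dpy-3, dpy-7, dpy-8 and dpy-6) had a peak. Whole larvae were used, so fewer cells in which a site is bound and weaker binding per cell cannot be told apart.

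Among the protein-coding families counted, the nuclear hormone receptors had the most X members with a promoter peak. Of 23 nuclear hormone receptor (nhr) genes on X, 7 had a promoter peak (30.4%), and of 246 on the autosomes 10 had one (4.07%). Over all protein-coding genes the shares were 11.5% on X and 13.3% on the autosomes, and no family was tested. The X peaks were led by nhr-48 with a signal of 309 (127 and 183 in the replicates), nhr-1 with 308 (123 and 181) and nhr-40 with 198 (78.6 and 112). At nhr-1 and nhr-40 the summit windows held AATGCAT. Both ins-39, an insulin-like gene (345), and his-24, a linker histone gene (129), were the only bound X members of their families, of 2 and 4. Of 19 neuropeptide-like genes, nlp-7 (168) and nlp-76 (134) had a peak, while none of 13 FMRFamide-like peptide (flp) genes had one, nor any of 6 acetylcholine receptor (acr) or 10 potassium channel (twk) genes. Of 27 collagen (col) genes 1 had a peak, col-185 (100), of 18 homeobox (ceh) genes 1, ceh-39, and of 2 ribosomal protein genes 1, rpl-11.2. Of 33 chemoreceptor genes, srg-64 (168) and srd-43 (145) had one. On the autosomes, 0 of 18 flp, 0 of 15 acr, 2 of 34 twk and 3 of 52 neuropeptide-like genes had one. Of col, ceh and ribosomal protein genes there, 7 of 129, 3 of 45 and 64 of 77 did. Of insulin-like, histone and chemoreceptor genes there, 0 of 36, 15 of 68 and 13 of 1321 did. The summit counted for srg-64 lay 1370 bp from its 5′ end and was also counted for nhr-255, 614 bp away.

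Transfer RNA genes, of which X holds 276 of 612, had promoter peaks more often on X. Over all chromosomes 22.1% had one. On X 75 did (27.2%, 95% interval 22 to 32.8), against 17.9% on the autosomes (Fisher's exact test, adjusted p = 0.020). With 1000 bp before and 250 bp after the 5′ end as the window, the shares were 23.2% and 16.4% and did not pass the threshold (adjusted p = 0.090 by Fisher's exact test). The X genes rested on 62 peaks, 10.7% of X peaks, while 2.41% of autosomal peaks lay in a tRNA promoter window. Their signals ran from 67.9 to 762, with a median of 116, and 19 of the 62 lay in a protein-coding promoter window as well. The highest, 762, was the peak near W02H3.3 that holds GCGCAGG, 1467 bp from the 5′ end of the tRNA gene. Many tRNA genes are near-identical copies, and how reads that match several were placed was not given. Of all X summits, 55 lay in or within 250 bp of a tRNA gene. The bin from 8 to 9 Mb holds 51 tRNA genes, more than any other on X, and had 37 peaks. Of snoRNA genes, 33.5% had a promoter peak in the genome as a whole, and on X 6 of 33 did (18.2% against 35.1%, Fisher's exact test, adjusted p = 0.107). Of microRNA genes, 11.5% had one in the genome, and on X 6 of 74 (8.11% against 12.8%, Fisher's exact test, adjusted p = 0.539), of which mir-54, mir-55 and mir-56 share 1 peak.

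GCGCAGG was the sequence in which X summits stood apart. Windows of 75 bp either side of a summit were searched on both strands for 5 sequences. GCGCAGG, or its reverse complement CCTGCGC, lay in 21 of 577 X windows (3.64%, 95% interval 2.27 to 5.51) and in 26 of 2410 autosomal windows (1.08%). The X share was 3.37 times the autosomal share (adjusted p = 0.00085 by Fisher's exact test). Each replicate's strongest peaks gave 3.97% ± 0.0677 on X and 1.10% ± 0.0927 on the autosomes (SD, n = 2). Copies of these 7 bases numbered 20.1 per Mb on X and 19.9 per Mb on the autosomes. It was in 0.285% of 151 bp windows tiled along X and in 0.284% along the autosomes, and in 0.366% and 0.296% of windows of that length at protein-coding promoters. In windows 500 bp from summits it was in 0.347% on X and 0.353% on the autosomes. Of 357 copies on X, 24 lay at optimal summits (6.72%), and of 1642 on the autosomes 26 did (1.58%). Among promoter summits alone the shares were 2.31% and 1.07%, and the difference did not pass the threshold (adjusted p = 0.113 by Fisher's exact test).

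**Figure D4:**
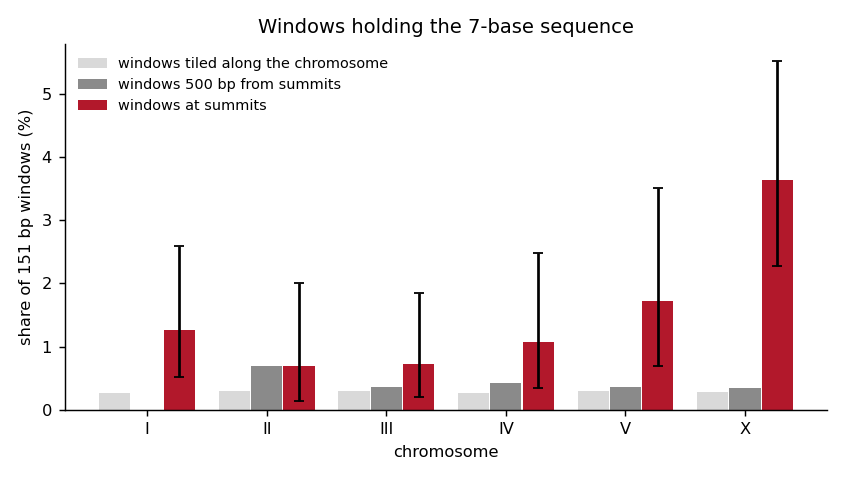
Share of 151 bp windows (percent) that hold GCGCAGG on either strand, on each chromosome, for windows tiled along it (light grey), windows 500 bp from summits (dark grey) and windows at optimal summits (red, with exact 95% intervals). The summit share on X, 3.64%, is the highest of the 6, while the tiled share on X is 0.285%.

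The X sites shared bases beyond the 7 searched. Of the 24 sites at X summits, 15 were preceded by TC, 8 by TATC, and 19 were followed by G. The median distance from the summit was 18.5 bp, and 17 of the 24 lay within 30 bp. The longer form TCGCGCAGG was looked at after these sites were seen and is given without a test. Unlike the 7 bases, it was denser on X, with 2.71 copies per Mb against 0.824 on the autosomes. It lay in 13 X summit windows, or 2.25%, and in 0 of 2410 autosomal windows. Of its 48 copies on X, 15 lay at optimal summits (31.2%, 95% interval 18.7 to 46.3), 17 at the strongest peaks of replicate 1 and 16 at those of replicate 2. Of its 68 copies on the autosomes 0 did, which allows a share of up to 4.41%, and 2 lay at summits of the pooled list. Of these 13 peaks, 2 near hlh-29 have the same 37 bases printed around the 7, with signals of 249.7 and 93.5, and how reads that match both places were assigned was not given.

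X peaks with GCGCAGG often lay outside promoters, and those with the longer form were strong. Their signals ran from 69.5 to 766 with a median of 250, while the other 556 X peaks had a median of 117. Of the 21, 8 were intergenic and 10 lay in promoter windows, and of the other 556, 81 were intergenic. The 13 with the longer form had a median signal of 518, and all 13 were strong in both replicates. Of the 25 strongest X peaks, 8 held GCGCAGG, and of the 25 strongest autosomal peaks 0 did. GAGAGA was in 4.76% of the 21 windows and in 36.3% of the other X windows. At the ins-39 promoter, a peak of 345 held the sequence 21 bp from its summit. Without the summits that hold GCGCAGG, the intergenic share was 14.6% on X and 10.1% on the autosomes (Fisher's exact test, adjusted p = 0.014).

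**Figure D5:**
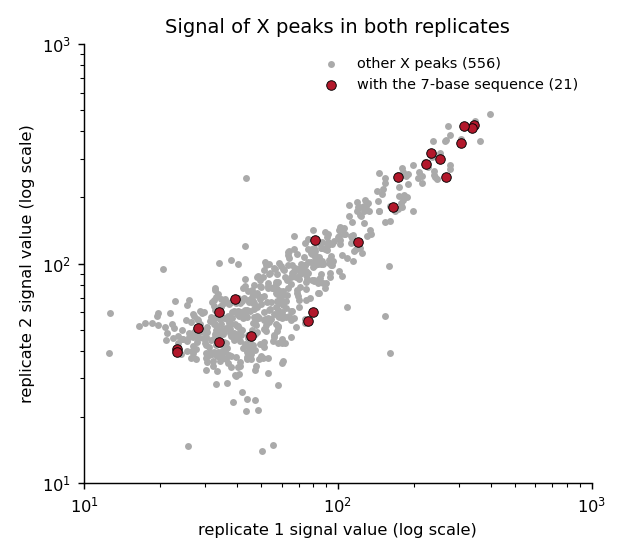
Signal of each X peak in replicate 1 (horizontal) and replicate 2 (vertical), both on log scales, with the 21 peaks that hold GCGCAGG in red and the other 556 in grey. The red points reach from the weak end of the cloud to its strong end, where the peaks at F20B6.9, W02H3.3 and mom-1 lie.

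The other sequences did not differ between X and the autosomes past the threshold. GAGAGA lay at 203 X summits (35.2%, 95% interval 31.3 to 39.2, against 36.6%, Fisher's exact test, adjusted p = 0.724) and in 7.24% of tiled windows on X. AATGCAT lay at 21 (3.64%, 95% interval 2.27 to 5.51, against 2.90%, Fisher's exact test, adjusted p = 0.524) and in 2.46% of tiled windows on X. The 21 AATGCAT peaks had a median signal of 110 and a highest signal of 308, and 11 of them lay in promoter windows. The homeodomain core TAATTA lay at 4.33% of X summits (95% interval 2.82 to 6.33) and the E box CACGTG at 4.68% (95% interval 3.11 to 6.74), against 4.56% and 4.52% (Fisher's exact test, adjusted p = 0.956 for both). GAGAGA overlaps itself in longer GA repeats, and a window was counted once. X summit windows had a median of 47.0% G and C bases, the highest of the 6 chromosomes, against 44.4% on the autosomes together.

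Most X peaks were strong in both replicates. Of X peaks, 473 (82.0%, 95% interval 78.6 to 85.0) overlapped one of the strongest 2987 peaks of both replicates, against 84.7% on the autosomes (Fisher's exact test, adjusted p = 0.203). The optimal list was made from these replicates, so the share is not independent of it. The median log2 ratio of replicate 1 to replicate 2 signal was −0.38 on X, and on the autosomes it ran from −0.35 to −0.29.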

How the data were processed

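ChIP-seq peaks of UNC-86 from 2 biological replicates of 1 group were used. Per the listing deposited beside the samples, the authors made a relaxed list from each replicate and a control, a pooled list, and the optimal IDR list from these. Not given in the sources used here are aligner, peak caller, IDR threshold and signal scaling. The authors' deposited signal value ranked peaks within a list, and the deposited −log10 q value was not used for ranking. Coordinates are on ce11, and no peak was converted between builds. The 577 X rows of the optimal list lie in 574 intervals, since 3 intervals hold a second summit, and 457 are 396 bp wide.

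Genes came from the Ensembl annotation of WBcel235, release 115, and sequences from the RefSeq WBcel235 assembly. X was compared with the autosomes pooled by two-sided Fisher's exact tests, and its share of peaks by an exact binomial test, with Benjamini-Hochberg adjustment over 18 comparisons and a threshold of 0.05. Intervals are exact (Clopper-Pearson) 95% intervals and cover counting error only. Promoter windows ran 1500 bp up to 500 bp down of a 5′ transcript end, then came exon, intron and intergenic sequence. A peak was strong in both replicates if a peak among each replicate's strongest 2987 overlapped it by at least 1 bp, and its replicate signals are those of the overlapping replicate peak with the nearest summit. The limit that a count of 0 allows is 3 of the total. Alternatives changed the list, build, window, gene assignment, neighbour distance and summit window, and left out each replicate.

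The genes named are for the 20 strongest X peaks, the protein-coding gene with the nearest 5′ end and, between divergent 5′ ends, the second gene. Also named are every X member of a symbol list with a promoter peak and up to 4 without, and up to 3 members of each family by strongest peak. The genes of the 5 densest groups of summits are named too. For the last place 4 tied groups are given, the first by position, and further ties were not listed. Genes outside this rule, such as those beside printed sequences, nhr-255, hlh-29 and the microRNA genes, were named after their values were seen. The members, lists, sequences and tests were chosen with earlier results of these data known. Computations used Python 3.11.15, scipy 1.17.1, numpy 2.4.6, matplotlib 3.10.9 and pandas 2.3.3, and the counting steps were tested on simulated data.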

Additional observations from a re-analysis of the deposited data

How the results depend on the processing

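Of 97 alternatives to 18 comparisons, 81 kept the side of the threshold, and 11 comparisons did so under every alternative run. Where neither the main setting nor the alternative passed, direction was not required. Some such differences changed sign, for example GAGAGA among promoter summits (37.6% on X against 34.1%). No paired analysis was possible because there was 1 group. The ce10 alternative used the authors' separate optimal list on that build, so it changed the peaks as well as the build. Adjusted p-values here are from Fisher's exact test, or the exact binomial test for the share of peaks on X. That share came past the threshold on the ce10 build (19.9%, adjusted p = 0.0031), in all pooled peaks (19.2%, adjusted p = 1.89e-07) and against the share of protein-coding genes (19.3% against 13.7%, adjusted p = 2.21e-16), and the replicates alone gave 19.2% to 19.7%, of which replicate 2 passed (adjusted p = 0.017). The lower share above the median signal came past it on ce10 (45.7%), for signals in the top 25% of the list (20.5%), among promoter summits (46.9%) and, in a setting added after seeing the data, without GCGCAGG summits (45.0%), and the replicates gave 45.0% to 48.0%, of which replicate 2 passed and replicate 1 did not (exact test, adjusted p = 0.019 and 0.524). With protein-coding 5′ ends only, exons held 7.63% of X summits against 4.61% (exact test, adjusted p = 0.017). The share of protein-coding genes with a peak was 11.2% to 11.8% in the replicates and not past the threshold in replicate 2 alone (exact test, adjusted p = 0.059), and it turned with the nearest 5′ end (10.3% against 8.89%). The tRNA share lost its call with a narrower window (23.2%) and within 250 bp of the gene (22.1% against 14.9%, exact test, adjusted p = 0.060), and the replicates gave 27.2% to 27.5%. The snoRNA share gained one in replicate 1 alone (exact test, adjusted p = 0.045), and the replicates gave 15.2% to 18.2%. GCGCAGG lost its call among promoter summits (2.31%). The causes were not tested. Peak lists give no depth, so a weak site and a thinly sequenced one cannot be told apart.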

Other observations

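Peaks at non-coding genes of X outside the classes above were mostly at the annotation's unclassified ncRNA genes, of which 264 of 2520 on X had a promoter peak (10.5%), against 12.1% on the autosomes. Of 162 piRNA genes on X, 11 had one (6.79%), and of 15201 on the autosomes 322 did (2.12%). Of 178 pseudogenes on X 2 had one (1.12%), against 1.69%. These classes were looked at after the data were seen and no test was run.

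Few X genes carried several promoter peaks. Of the 313 protein-coding genes with one, 293 had 1 peak, 18 had 2 and 2 had 3. The genes with 3 were sox-2, an HMG-box transcription factor gene of neural development, and npr-18, a neuropeptide receptor gene, and their strongest peaks had signals of 98.6 and 92.2. Among those with 2 were ftt-2 (638), rab-14 and nipi-3, which share a strongest signal of 438, and nfki-1 (397).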
